A study of Brassica juncea with 21 samples.

Results

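Jasmonate genes were followed through 7 groups of Brassica juncea tissue by RNA sequencing. Jasmonate is a lipid hormone of plants. The members were the transcript rows whose description holds 1 of 8 Brassica rapa gene identifiers: LOX2 (LOC103830993), OPR3 (LOC103860353), ACX1 (LOC103869185), a pair of genes named 4-coumarate--CoA ligase-like 8 (LOC103835792 and LOC103835794), JAZ10 (LOC103846592), MYC2 (LOC103874758) and VSP1 (LOC103854787). They gave 9 rows of 14398 in the table, because LOC103835794 has 2 transcript variants, X1 and X2. All 9 rows were among the 14390 kept by a filter on low values. The genes were chosen with their values in all 7 groups known, so every value and count of members below is a description.

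The groups were lateral nectaries before, during and after nectar secretion (called pre-secretory, secretory and post-secretory), median nectaries at the same stages, and leaf, with 3 libraries in each of the 7 groups per the labels. All plants were Brassica juncea grown at 21 °C with 16 h of light a day, and no genotype, treatment or strain that would separate the groups is labelled. The first stage lies 24 h ahead of anthesis, the second is full anthesis and the third follows it by 12 h. Leaf was collected together with the secretory stage. By these hours the post-secretory groups fall at another time of day than the other groups. Comparisons with them cannot tell stage from time of day. Each nectary library pooled about 100 nectaries cut by hand from plants about 40 days old, with different plants in each replicate pool, so a value is an average over many plants and over all cells of the dissected piece.

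The deposited table holds 1 normalized value per group and transcript, with no value per library. Without values per library, neither a spread between replicates nor a test or p-value can be given. Differences are log2(value + 1) of the first-named group minus that of the second, and a row was counted as higher or lower at 2-fold or more. The normalized value carries no gene length, so levels are compared between groups and not between genes. The lateral post-secretory column lacks the normalization mark that the other 6 carry, and was taken to hold the same kind of value. Every statement on lateral post-secretory nectaries rests on that.

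Jasmonate is made from linolenic acid of chloroplast membranes. A 13-lipoxygenase such as LOX2, allene oxide synthase (AOS) and allene oxide cyclase (AOC) act in the plastid, OPR3 reduces the product in the peroxisome, OPCL1 attaches coenzyme A, and ACX1, AIM1 and KAT2 shorten the chain. The isoleucine conjugate binds the receptor COI1 together with JAZ repressors, which are then degraded, and transcription factors such as MYC2 are set free. In Arabidopsis, JAZ genes and VSP1 are themselves switched on by jasmonate. Jasmonate is known for its roles in stamen development and wound responses, and it promotes nectar secretion in Brassica napus.

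Most members could be tied to a single Arabidopsis gene, whose matched protein the table lists with a position and no genome build. The LOX2 row matched AT3G45140 on chromosome 3 from 16526192 to 16529233, forward strand, and the OPR3 row matched AT2G06050 on chromosome 2 from 2359240 to 2361971, reverse strand. The ACX1 row matched AT4G16760 on chromosome 4 from 9424930 to 9428689, reverse strand, and the MYC2 row AT1G32640 on chromosome 1 from 11799042 to 11800913, reverse strand. The JAZ10 row, described as protein TIFY 9, matched AT5G13220 on chromosome 5 from 4219001 to 4219996, forward strand. The VSP1 row is described as vegetative storage protein 2-like and matched VSP1, AT5G24780, on chromosome 5 from 8507938 to 8508889, reverse strand. Each span is that listed for the matched protein and need not cover the whole gene, and exons and untranslated regions were not resolved.

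The ligase rows are less certain as jasmonate genes. LOC103835792 matched OPCL1 (AT1G20510, chromosome 1, 7104362 to 7105856, reverse strand) and also AT5G38120 (chromosome 5, 15213773 to 15215708, forward strand), a member of the same enzyme family. Variant X1 of LOC103835794 matched AT5G38120 and AT1G20500, and variant X2 matched AT5G38120 alone, so neither variant matched OPCL1. The row that matched OPCL1 and no other locus was LOC103835791, named 4-coumarate--CoA ligase-like 5, which is not a member.

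Marker genes of nectary and leaf were high in the tissues the labels name. The 3 nectary markers CRC, SWEET9 and CWINV4 summed to between 15361 and 333864 in the 6 nectary groups and to 178 in leaf. The 11 rows of photosynthesis markers summed to between 32473 and 66232 in the nectary groups and to 1107938 in leaf. The nectary marker sum was 15361 in lateral post-secretory nectaries, against 333864 in lateral secretory ones, and 26557 in median post-secretory nectaries, against 150171 in median secretory ones. No marker row of any list was at 0 in any group.

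LOX2, which starts the pathway, was highest before secretion and lower at each later stage. Its normalized values were 38280, 2487 and 38 in lateral nectaries through the 3 stages, 42550, 3524 and 185 in median nectaries, and 995 in leaf. The pre-secretory groups held the highest values, and both post-secretory groups lay below leaf. At the secretory stage LOX2 was 15.4-fold lower than before secretion in lateral nectaries (log2 −3.94) and 12.1-fold lower in median ones (−3.59). After secretion it was a further 65.4-fold lower in lateral nectaries (−6.00) and 19.0-fold lower in median ones (−4.24).

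VSP1, a phosphatase-like storage protein and a much-used jasmonate response marker in Arabidopsis, had a similar course. Its values were 1894, 177 and 1 in lateral nectaries through the 3 stages, 1468, 100 and 9 in median nectaries, and 2 in leaf. After secretion it was near its leaf value in lateral nectaries and above it in median ones. The secretory value was 10.7-fold below the pre-secretory one in lateral nectaries (−3.41) and 14.7-fold below it in median ones (−3.86). Across the 7 groups the log2 values of LOX2 and VSP1 had Pearson's r = 0.92, the highest of any pair of members outside the ligase rows. These r values come from 7 points that share libraries and normalization and describe the members alone.

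OPR3, the peroxisomal reductase, was also highest before secretion, but its post-secretory value was not the lowest in median nectaries. Its values were 1731, 705 and 535 in lateral nectaries through the stages, 1412, 139 and 355 in median nectaries, and 319 in leaf. At the secretory stage it was 2.46-fold lower than before in lateral nectaries (−1.29) and 10.2-fold lower in median ones (−3.34). Median secretory nectaries held the lowest value of the 7 groups, and lateral secretory nectaries were 5.07-fold above them (2.33).

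The LOC103835792 ligase row, variant X1 of LOC103835794 and ACX1 kept high values through secretion. LOC103835792 had values of 48888, 96339 and 315 in lateral nectaries through the stages, 81329, 121755 and 13104 in median nectaries, and 180 in leaf. Its secretory value was above the pre-secretory one by 0.98 on the log2 scale in lateral nectaries, just under 2-fold, and by 0.58 in median ones. With columns scaled by median ratio the lateral difference was 1.07, past 2-fold. After secretion it was 306-fold lower in lateral nectaries (−8.25) and 9.29-fold lower in median ones (−3.22).

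Variant X1 of LOC103835794 had values of 23530, 25650 and 502 in lateral nectaries, 30903, 26435 and 5600 in median nectaries, and 56 in leaf. Its secretory values lay within 2-fold of the pre-secretory ones in both nectary types, and it was lower after it, by 51.1-fold in lateral nectaries (−5.67) and 4.72-fold in median ones (−2.24). Variant X2 was low throughout, at 44, 12 and 1 in lateral nectaries and 63, 53 and 10 in median nectaries, and it was listed at 0 in leaf. X1 and LOC103835792 had r = 0.98 over the 7 groups. They are near relatives by name and match, so reads shared between them cannot be told apart here.

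ACX1, the acyl-CoA oxidase that opens chain shortening and also degrades other fatty acids, was highest at secretion in both nectary types. Its values were 9579, 39323 and 6465 in lateral nectaries, 12388, 27036 and 14757 in median nectaries, and 1370 in leaf. Every nectary group lay above leaf. The secretory value was 4.11-fold above the pre-secretory one in lateral nectaries (2.04) and 2.18-fold above it in median ones (1.13). With columns scaled to the same total the median difference was 0.71, under 2-fold, while the median over all transcripts was −0.37 under that scaling.

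JAZ10, a repressor, and MYC2, the transcription factor that JAZ proteins hold back, differed from each other. Over the 7 groups JAZ10 had r = 0.86 with ACX1, 0.83 with variant X1 of LOC103835794 and −0.21 with MYC2. JAZ10 had values of 945, 814 and 489 in lateral nectaries, 492, 932 and 835 in median nectaries, and 2 in leaf. All 6 nectary values lay within 2-fold of one another and far above leaf, with log2 differences from leaf of 7.35 to 8.30. These rest on a leaf value of 2 and were 5.38 to 6.31 with a pseudocount of 10. None of the 6 stage steps or the 3 lateral-to-median comparisons of JAZ10 passed 2-fold, although with columns scaled to the same total the lateral pre-secretory value exceeded the median one by 1.03.

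MYC2 had values of 1443, 452 and 1571 in lateral nectaries, 1004, 434 and 1141 in median nectaries, and 1102 in leaf. It was lowest at secretion in both nectary types, and its other nectary values lay within 2-fold of leaf. The secretory value was 3.19-fold below the pre-secretory one in lateral nectaries (−1.67) and 2.31-fold below it in median ones (−1.21). The post-secretory value was 3.48-fold above the secretory one in lateral nectaries (1.80) and 2.63-fold above it in median ones (1.39). MYC2 was the only member row of the 9 that was lowest at secretion among the stages of both types, a shape that 20.3% of all transcripts had. Of 50 further jasmonate rows, described below, 15 had it too.

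**Figure D1:**
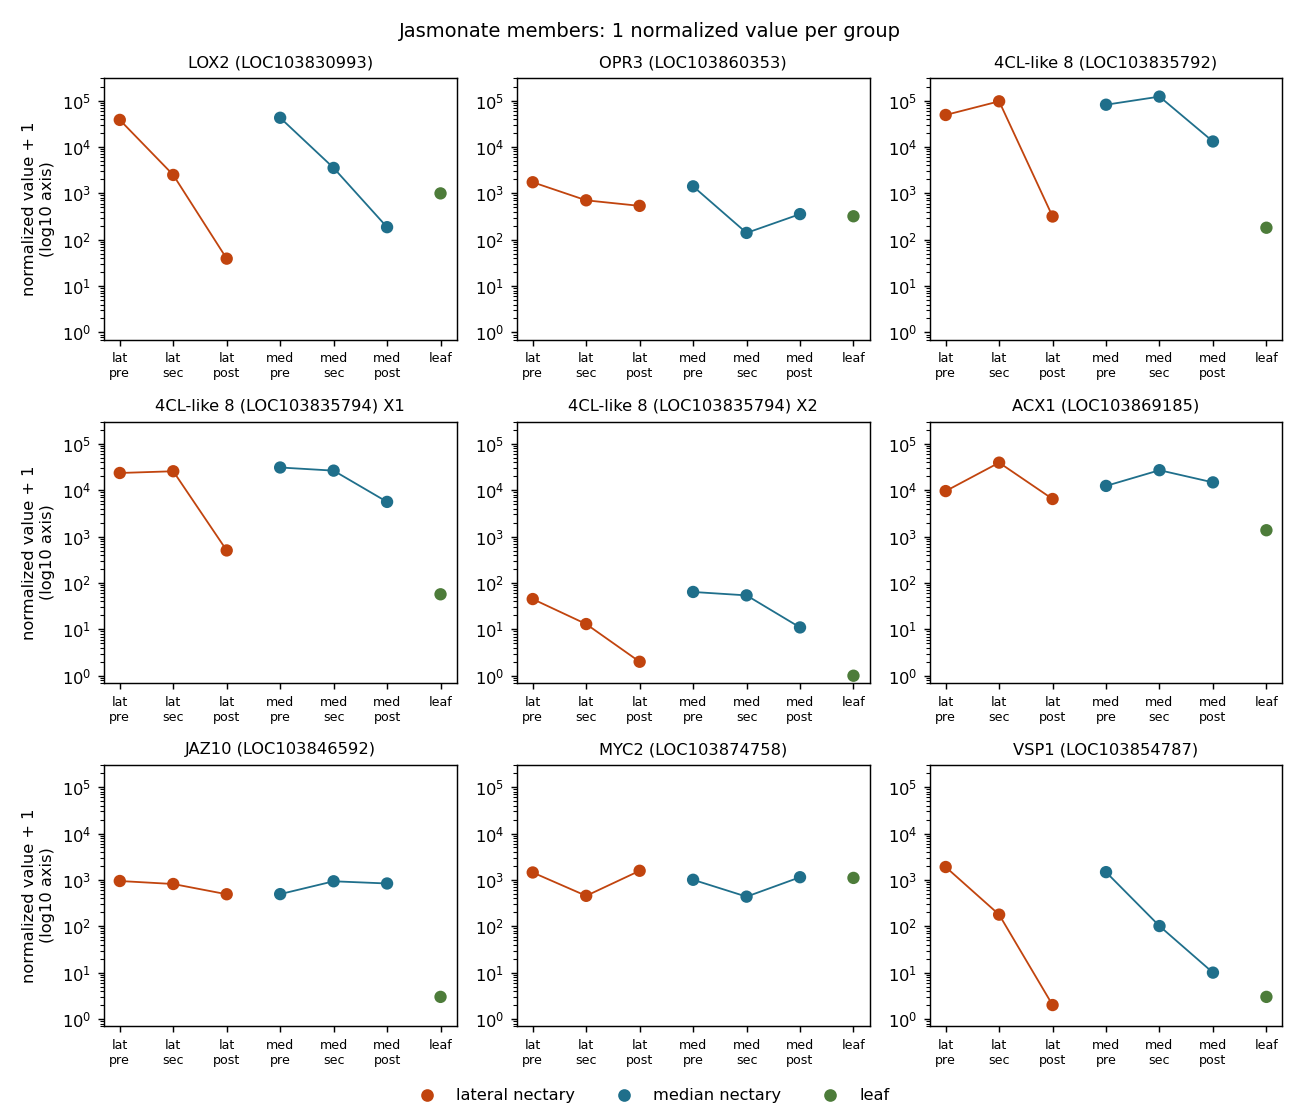
Normalized value plus 1 on a log10 axis (y) for each of the 9 member rows in the 7 groups (x: lateral nectaries, median nectaries and leaf, with pre, sec and post for the stage). Each point is the single value of a group and lines join the stages of a nectary type. LOX2 (38280, 2487 and 38 in lateral nectaries) and VSP1 (1894, 177 and 1) are lower at each later stage, the LOC103835792 row and ACX1 are highest at secretion, MYC2 is lowest there, and JAZ10 is at 2 in leaf.

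Counted together, in lateral nectaries 5 of 9 member rows were lower and 1 was higher at the secretory stage than before it, against 23.5% lower and 21.5% higher among all transcripts. In median nectaries 4 of 9 were lower at this step, against 18.4% of all transcripts. With ACX1, which was higher, 5 of 9 were past 2-fold there, against 35.9% of all transcripts in either direction, of which 2532 of 14390 were higher. LOX2, VSP1, OPR3 and MYC2 were lower in both types, and ACX1 was higher in both; 14.5% and 13.4% of all transcripts were lower or higher in both. No member was past 2-fold in opposite directions in the nectary types, against 0.528% of all transcripts. The median difference of the members was −1.29 in lateral and −0.25 in median nectaries, beside −0.04 and 0.03 for all transcripts. Because the members were picked for such values, these counts say nothing beyond the rows themselves.

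A wider list of jasmonate genes covered rows outside the members. It searched 60 Arabidopsis genes by locus, or by product name where a row had no Arabidopsis match, and found 50 further rows. It was drawn up with earlier results of these data known. Of these 50 rows, 28 were lower and 5 higher in lateral nectaries at secretion than before it, and 27 were lower and 1 higher at the same step in median nectaries. Among all transcripts 23.5% were lower and 21.5% higher in lateral nectaries, and 18.4% lower and 2532 of 14390 higher in median ones. The same shares stand beside the counts by role below. In both types at once, 20 of 50 were lower and 1 was higher, against 14.5% and 13.4% of all transcripts. The median difference of the 50 rows was −1.07 in lateral and −1.12 in median nectaries. Leaving out the 14 of these 50 rows matched by product name alone, 18 of the remaining rows were lower in lateral and 16 in median nectaries.

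Among the further synthesis rows, 8 of 13 were lower in lateral and 5 of 13 in median secretory nectaries, and 0 were higher in either. AOC2 (LOC103875352), a cyclase, was listed at 98, 1 and 35 in lateral nectaries through the stages, 51, 1 and 46 in median nectaries, and 5 in leaf. AOS (LOC103848557) was listed at 179, 27 and 50, then 209, 12 and 48, and 89 in leaf. The AOC2 and AOS rows were matched by product name alone. An AOC4 row (LOC103836113), chosen after its values were seen, was listed at 342, 242 and 539, then 147, 68 and 170, and 410 in leaf. AOC4 was within 2-fold at secretion in lateral nectaries (−0.50) and lower in median ones (−1.10). LOC103835791, the ligase matched to OPCL1 alone, was listed at 2144, 670 and 315 in lateral nectaries, 1934, 418 and 145 in median nectaries, and 121 in leaf. It was lower at secretion by 1.68 and 2.21 on the log2 scale in lateral and median nectaries, whereas LOC103835792 was higher there by 0.98 and 0.58.

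The response rows other than VSP1 were lower, 3 of 3 in each nectary type, with median differences of −7.40 and −8.63. Of 8 response genes searched, 4 had a row, VSP1 among them. CLH1 (LOC103872768), a chlorophyllase induced by jasmonate in Arabidopsis, was listed at 1795, 6 and 7 in lateral nectaries, 2830, 4 and 6 in median nectaries, and 60 in leaf. JR1 (LOC103869757), a jacalin-type lectin, was listed at 9982, 58 and 96, then 3561, 8 and 5, and 9 in leaf. CORI3 (LOC103861272), a cystine lyase, was listed at 317, 1 and 6, then 78, 4 and 2, and at 3489 in leaf. All 3 were far below their pre-secretory values at secretion, and VSP1 was at 177 in lateral and 100 in median nectaries then.

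Of 20 further repressor rows, 14 were lower at secretion in each nectary type, 1 was higher in lateral nectaries and 0 in median ones. The 4 rows named next had the largest differences at this step among the 20, and all were matched by product name alone. A JAZ5 copy (LOC103842752) was listed at 369, 0 and 13 in lateral nectaries, 332, 1 and 34 in median nectaries, and 55 in leaf. A JAZ2 copy (LOC103830675) was listed at 464, 4 and 5, then 309, 0 and 2, and 131 in leaf. A JAZ1 copy (LOC103835861) was listed at 216, 13 and 17, then 110, 5 and 11, and 6 in leaf. JAZ7 (LOC103865348) was listed at 34, 32 and 8, then 42, 4 and 5, and 4 in leaf, so it was lower at secretion in median nectaries alone. Some rows matched by locus, chosen after their values were seen, had higher values. Another JAZ5 copy (LOC103835959) was listed at 2366, 279 and 496, then 1507, 238 and 607, and 132 in leaf. A JAZ12 copy (LOC103845633) was listed at 2079, 1928 and 2098, then 2103, 1600 and 2425, and 1130 in leaf. This JAZ12 copy was within 2-fold at secretion in both types. The JAZ10 member was within 2-fold at this step, and its contrast with the other JAZ rows was not tested.

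Rows of genes that remove jasmonate, found for 6 of 10 genes searched, were split. At secretion 3 of 6 were lower in each type, against 23.5% of all transcripts in lateral and 18.4% in median nectaries. In lateral nectaries 2 were higher, against 21.5% of all transcripts, and in median ones 1, against 2532 of 14390. ST2A (LOC103850640), a hydroxyjasmonate sulfotransferase, was listed at 864, 35 and 15 in lateral nectaries, 613, 5 and 88 in median nectaries, and 2 in leaf. JOX3 (LOC103863130), a jasmonate oxidase, was listed at 183, 4 and 34, then 17, 2 and 14, and at 0 in leaf. ILL6 (LOC103847720), an amidohydrolase that cleaves the conjugate, was lower at secretion by 1.71 and 1.73 in lateral and median nectaries. IAR3 (LOC103868548), a related amidohydrolase, was higher by 1.56 and 1.06. The JAR1 enzyme, which makes the conjugate, was not analysed here.

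The receptor and the transcription factors gave few rows. Of 2 COI1 rows, LOC103865754 was higher at secretion in lateral nectaries (132 against 47, log2 1.47) and within 2-fold in median ones (84 against 63), and LOC103857890 was within 2-fold in both. Of 6 transcription factor rows other than MYC2, 0 were lower and 1 higher in lateral nectaries, and 2 were lower and 0 higher in median ones. JAM3 (LOC103869671), a bHLH repressor of jasmonate responses, was the higher row, at 930 against 426 (1.12). The 2 lower rows were MYC4 copies, both matched by product name alone. They were LOC103855832 at 5 against 14 (−1.32) and LOC103863974 at 4 against 10 (−1.14), and neither copy exceeded 85 in any group. JAM2 (LOC103844637), another bHLH repressor, had −0.43 and −0.75 in lateral and median nectaries.

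Marker lists for other sources of RNA also differed at this step. The 7 rows of stress and handling markers (6 of 10 genes) summed to 6881 in lateral secretory nectaries, against 196 in lateral pre-secretory ones, and to 1897 in median secretory nectaries, against 344 in median pre-secretory ones. HSFA2 at 3113 and CML38 at 1753 were the largest parts of the lateral secretory sum. TCH4 was the only row not higher, at 38 against 39 in lateral and 41 against 64 in median nectaries. The 5 pollen marker rows (4 of 8 genes) summed to 4038 against 622 in lateral and 6377 against 1152 in median nectaries, in the same order. The petal and stamen list gave 1 row, AP3, at 188 against 298 in lateral and 209 against 218 in median nectaries. The part of these in the jasmonate differences was not tested. The secretory values also enter the comparison with the post-secretory stage, so both comparisons share them. In tissue of this kind, fewer cells of a type and less RNA per cell cannot be told apart.

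**Figure D2:**
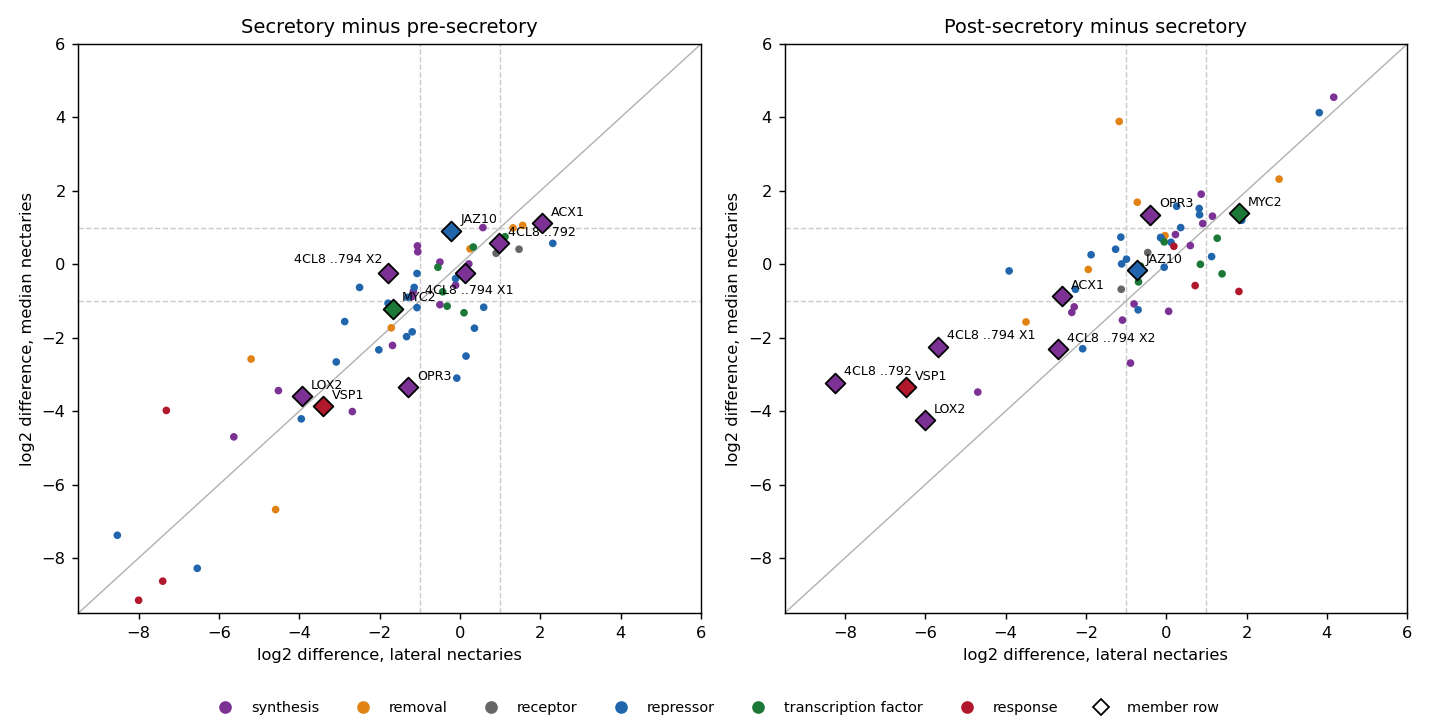
Log2 difference in lateral nectaries (x) against that in median nectaries (y) for the 59 jasmonate rows, at the secretory minus pre-secretory step (left) and the post-secretory minus secretory step (right); both steps use the secretory columns. Diamonds are the 9 member rows (4CL8 labels carry the last digits of the ligase identifiers), colours are roles, dashed lines mark 2-fold and the solid line equal differences. On the left LOX2 (−3.94 and −3.59) and VSP1 (−3.41 and −3.86) lie near the diagonal, and on the right LOC103835792 (−8.25 and −3.22) lies far above it.

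After secretion most members were lower than during it, while the wider list was divided. In lateral post-secretory nectaries 6 of 9 member rows were lower and 1 higher than in lateral secretory ones, against 18.4% and 23.9% of all transcripts. In median post-secretory nectaries 5 of 9 were lower and 2 higher, against 15% and 17.5%. The rows lower in both were LOX2, VSP1, LOC103835792 and both variants of LOC103835794, and MYC2 was higher in both. Among all transcripts 8.64% were lower in both and 12.1% higher in both, and 1.09% were past 2-fold in opposite directions, as 0 members were. In both types at once 6 of the 50 further rows were lower and 5 higher. Taking the types singly, of the 50 further rows, 15 were lower and 9 higher at this step in lateral nectaries, and 10 were lower and 13 higher in median ones. Their medians were −0.09 and 0.29, beside 0.06 and −0.05 for all transcripts. With columns scaled to the same total the 50 rows had 9 lower and 16 higher in lateral, and 4 lower and 22 higher in median nectaries. That scaling moved the median of all transcripts by 0.64 in lateral and 0.51 in median nectaries. The stress and handling marker sum was 689 in lateral post-secretory nectaries, against 6881 in lateral secretory ones, and 538 in median post-secretory nectaries, against 1897 in median secretory ones. Its TCH4 row went the other way, at 249 against 38 in lateral and 84 against 41 in median nectaries. Nectary markers were lower at this step, as given above, and the part of either list was not tested.

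After secretion compared with before it, 6 of 9 member rows were lower and 0 higher in each nectary type. The background was 14.3% lower and 17% higher in lateral nectaries, and 21.7% lower and 19.8% higher in median ones. The 6 rows were the same in both types, namely LOX2, OPR3, VSP1 and the 3 ligase rows, against 11.2% of all transcripts lower in both types. The share of all transcripts higher in both was 13.2%, and 0.493% were past 2-fold in opposite directions, as 0 members were. ACX1, JAZ10 and MYC2 were within 2-fold. The LOX2 difference was −9.94 in lateral and −7.84 in median nectaries, and that of VSP1 was −9.89 in lateral and −7.20 in median nectaries. Of the 50 further rows, 31 were lower and 1 higher in lateral nectaries, and 26 were lower and 3 higher in median ones. The nectary marker sum was 15361 in lateral nectaries after secretion, against 202693 before it, and 26557 in median nectaries after secretion, against 100495 before it. In median nectaries SWEET9 went the other way, at 8959 after secretion against 1367 before it, while CWINV4 and CRC were lower. In lateral nectaries all 3 were lower. The pollen marker sum was 3141 in lateral nectaries after secretion, against 622 before it, and 10225 in median nectaries after secretion, against 1152 before it. The part of these lists in the differences was not tested.

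**Figure D3:**
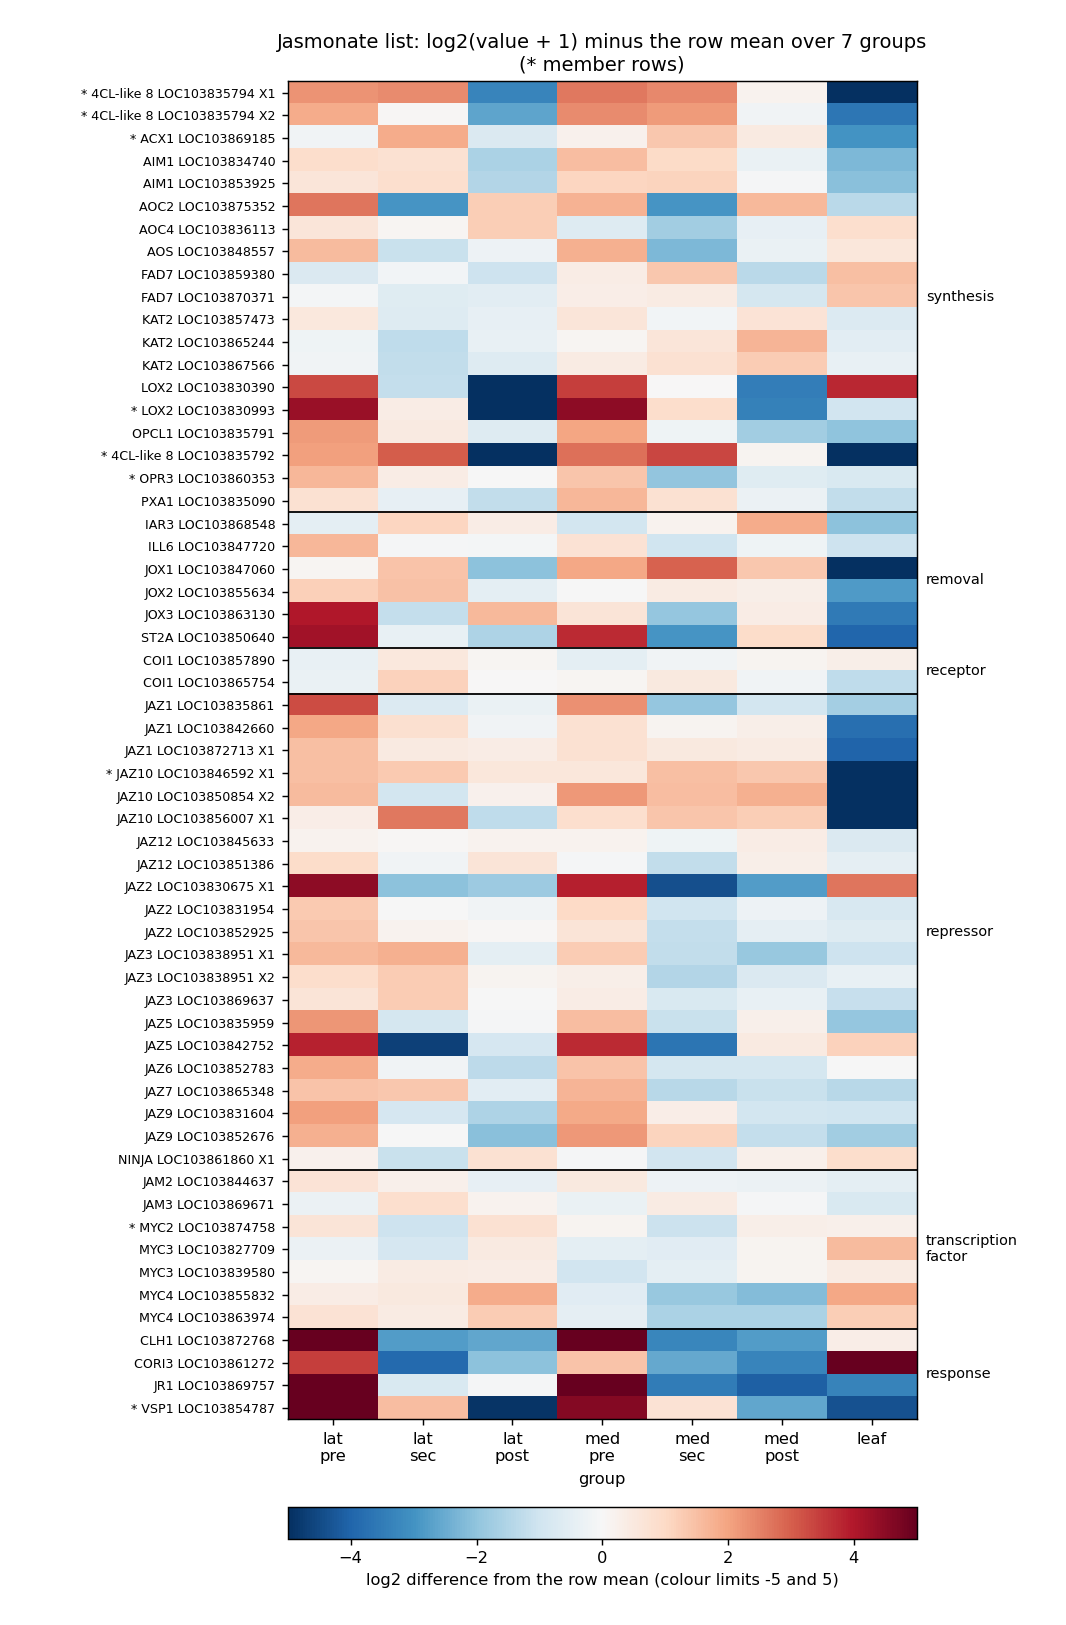
Log2(value + 1) minus the mean of its row over the 7 groups, for 59 jasmonate rows (y, grouped by role, member rows starred) in the 7 groups (x). Red is above and blue below the row mean, with colours limited at −5 and 5. The 4 response rows are reddest before secretion, apart from CORI3, which is highest in leaf at 3489, and most repressor rows are also reddest before secretion.

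The stage with the highest value was also counted. Of 50 further rows, 26 were highest before secretion in both nectary types, against 24.7% of all transcripts. Another 7 were highest at secretion in both, against 21.7%, and 4 were highest after it in both, against 19%. By role, 13 of 20 repressor rows, 6 of 13 synthesis rows, 3 of 3 response rows, 3 of 6 removal rows and 1 of 6 transcription factor rows were highest before secretion in both types. Of the 9 members, LOX2, OPR3, VSP1 and variant X2 of LOC103835794 were highest before secretion in both, LOC103835792 and ACX1 at secretion, and MYC2 after it. JAZ10 and variant X1 had different peak stages in lateral and median nectaries.

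Copies of the same gene did not all share a course. The second LOX2 copy, LOC103830390, was listed at 2952, 128 and 4 in lateral nectaries through the stages and 3265, 300 and 26 in median nectaries, with its lowest values after secretion, like the member. Its leaf value was 4052, whereas the member was 38.5-fold higher in lateral pre-secretory nectaries than in leaf (5.26). Both copies were thus lower at each later stage, and before secretion the member was far above leaf while the other copy was within 2-fold of it (−0.46 in lateral and −0.31 in median nectaries). The copies share a product name and an Arabidopsis match, so reads shared between them cannot be told apart here.

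The 3 JAZ10 copies, chosen for this description after their values were seen, differed in lateral nectaries. LOC103856007 was listed at 362, 1801 and 119 in lateral nectaries, 506, 753 and 665 in median nectaries, and 7 in leaf. LOC103850854 was listed at 242, 42 and 93, then 370, 239 and 276, and at 0 in leaf. This row was matched by product name alone and is transcript variant X2, whereas the rows of the other copies are variant X1. Reads shared between the copies cannot be told apart here. At secretion in lateral nectaries LOC103856007 was higher by 2.31 on the log2 scale, LOC103850854 was lower by 2.50, and the member differed by −0.22. In median nectaries the 3 copies had 0.57, −0.63 and 0.92 in the same order, all within 2-fold. All 3 copies were at 7 or less in leaf.

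**Figure D4:**
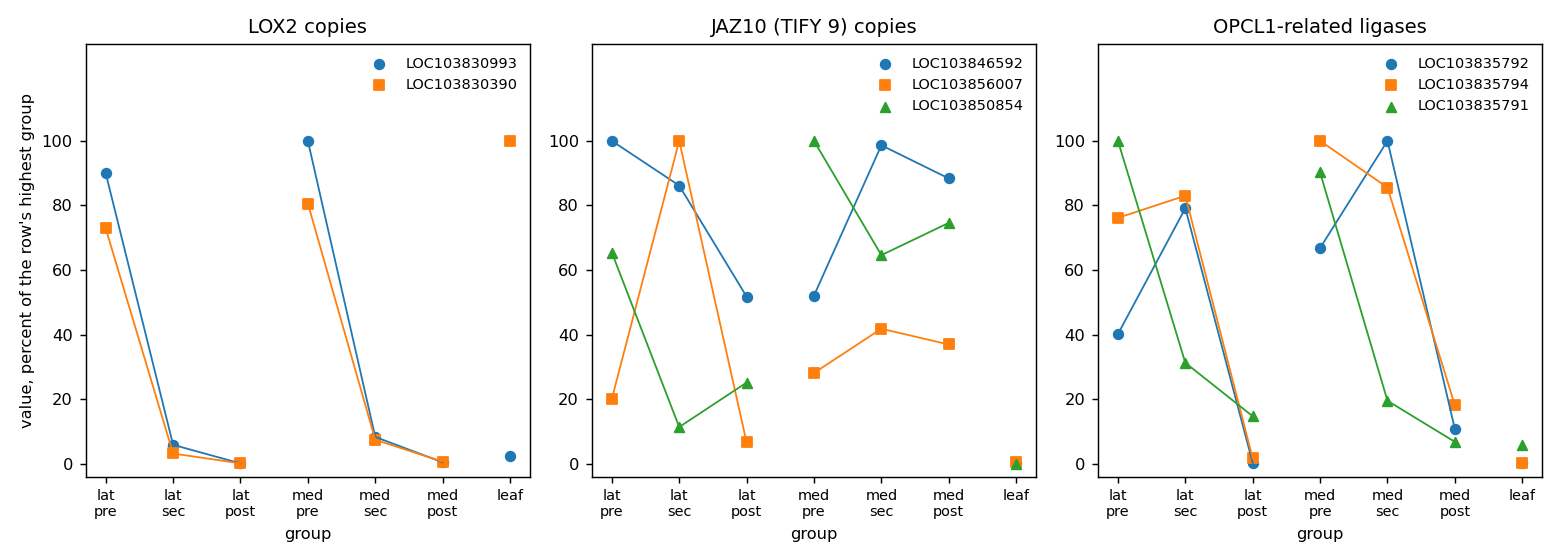
Value as a percent of the row's highest group (y) in the 7 groups (x) for the LOX2 copies, the JAZ10 copies and the OPCL1-related ligases (variant X1 for LOC103835794). Each point is the single value of a group and lines join the stages of a nectary type. The LOX2 copies have similar courses in nectaries and differ in leaf, and LOC103856007 reaches its highest value, 1801, in lateral secretory nectaries.

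Compared with leaf, the members were mostly higher in nectaries before and during secretion. In lateral nectaries 8 of 9 rows were higher and 0 lower before secretion, against 23% and 19.8% of all transcripts. At secretion 8 were higher and 1 lower, against 29.6% and 27.7%, and after it 4 were higher and 1 lower, against 19.7% and 14.7%; 1 of these 4 was variant X2, at 1 against 0. In median nectaries 8 were higher and 0 lower before secretion, against 21.8% and 20.1%. At secretion 7 were higher and 2 lower, against 25.1% and 25.2%, and after it 6 were higher and 1 lower, against 22% and 20.9%. VSP1 was among these 6 at 9 against 2, and was under 2-fold (0.66) with a pseudocount of 10. All 6 comparisons share the leaf column. ACX1, JAZ10 and the 3 ligase rows were above leaf in every nectary group, as 21 of the 50 further rows and 27.4% of all transcripts were.

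MYC2, OPR3 and LOX2 were each below leaf in some nectary groups. MYC2 was 2.44-fold lower than leaf in lateral secretory nectaries (−1.28) and 2.54-fold lower in median ones (−1.34). OPR3 was 2.29-fold lower than leaf in median secretory nectaries (−1.19) but 2.21-fold higher in lateral ones (1.14, and 0.94 with columns scaled to the same total). LOX2 was 26.2-fold lower than leaf in lateral post-secretory nectaries (−4.67) and 5.38-fold lower in median ones (−2.42). Of the 50 further rows, 34, 22 and 17 were higher than leaf in lateral nectaries through the 3 stages, and 32, 19 and 18 in median nectaries. Lower than leaf were 5, 12 and 9 in lateral and 8, 13 and 10 in median nectaries. Of all transcripts, 23%, 29.6% and 19.7% were higher than leaf in lateral nectaries through the stages, and 21.8%, 25.1% and 22% in median ones. The shares lower were 19.8%, 27.7% and 14.7% in lateral, and 20.1%, 25.2% and 20.9% in median nectaries. The counts of further rows lower at and after secretion lay near these shares.

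Lateral and median nectaries were within 2-fold before secretion in all 9 member rows, as in 12617 of 14390 transcripts. After secretion 6 member rows were lower in lateral nectaries. Before secretion 0 of 9 member rows were higher and 0 lower in lateral than in median nectaries, against 7.9% and 4.42% of all transcripts. At secretion 1 was higher (OPR3) and 1 lower (variant X2 of LOC103835794, at 12 against 53), against 14.7% and 12.9%. After secretion 0 were higher and 6 lower in lateral nectaries, against 12.6% and 9.41%. LOC103835792 was 41.6-fold lower in lateral than in median post-secretory nectaries (−5.37), variant X1 11.2-fold (−3.48), LOX2 4.87-fold (−2.25) and ACX1 2.28-fold (−1.19). VSP1, at 1 against 9, and variant X2, at 1 against 10, were also lower, and neither passed 2-fold with a pseudocount of 10. Of the 50 further rows 9 were higher and 12 lower at that stage, with a median difference of 0.07. The nectary marker sum was 15361 in lateral and 26557 in median post-secretory nectaries, and its part in these differences was not tested.

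Rows with a course like that of a member were sought among 10113 transcripts that reached 100 and spanned at least 1 on the log2 scale. For LOX2 the closest were V-type proton ATPase subunits, LOC103843100 (r = 0.988) and LOC103862370 (0.987), and a mitochondrial ATP synthase subunit, LOC103863474 (0.979). Pearson's r takes no account of size: LOC103843100 lay between 125 and 473 in the 7 groups and LOC103862370 between 592 and 1658, while LOX2 lay between 38 and 42550. For OPR3 they were the DELLA protein RGL2 (LOC103855161, 0.984), a TIFY 10B-like repressor of the jasmonate list (LOC103852925, 0.979) and an acyl-CoA thioesterase (LOC103865068, 0.977). For LOC103835792 they were a MATE efflux protein (LOC103860734, 0.994), a sucrose-phosphate synthase (LOC103844199, 0.994) and AIM1 (LOC103853925, 0.993), a peroxisomal enzyme that acts after ACX1. AIM1 was listed at 4634, 5412 and 1105 in lateral nectaries, 6478, 6513 and 2905 in median nectaries, and 713 in leaf.

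For MYC2 the closest rows were GATA transcription factor 1 (LOC103860012, 0.986), a Dicer homolog (LOC103873620, 0.976) and an uncharacterized transcript (LOC103871934, 0.974). For VSP1 they included a keratin-associated protein (LOC103835377, 0.992) and a mitochondrial porin (LOC103837608, 0.990). For ACX1 they included an uncharacterized transcript (LOC103874679, 0.995) and cullin-3A (LOC103840654, 0.992), and for JAZ10 protein BONZAI 3 (LOC103843374, 0.991). The closest row was a protein phosphatase 2A regulatory subunit (LOC103872554, 0.994) for variant X1 of LOC103835794. For variant X2 it was an uncharacterized transcript (LOC103865765, 0.995). Each r is over 7 groups that share libraries and normalization and was among the 3 highest of 10113 for its member, so it is given as a description with no p.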

How the data were processed

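RNA sequencing libraries (21, 3 in each of 7 groups) were made by the submitters, per the labels, with a TruSeq RNA v2 kit. The authors deposited 1 whole-number score per group and transcript, which is a normalized value. In the headers 6 columns bear the mark UQN, read here as upper-quartile normalized, a reading the headers do not explain; the column for lateral nectaries after secretion bears none. Not given in the sources used here are the aligner, the counting, the build and how 3 libraries became 1 value, and the depth per library is unknown. Column totals ran from 7081592 to 11197495 and 75th percentiles from 450 to 543.75.

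The filter on low values kept rows that reached 1 in 3 or more of the groups. Differences were taken on log2(value + 1) in 15 comparisons, with Python 3.11.15, pandas 2.3.3 and numpy 2.4.6, and a call needed 2-fold. The steps were tested on simulated data. With 1 value per group, no model or permutation test could be run. Rows are Brassica rapa transcripts, so homoeologous copies of a Brassica juncea gene are not listed apart. How far reads of each copy enter a row is unknown.

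Members and lists were chosen with earlier results of these data known. Named genes were the members and up to 4 further rows per role with the largest difference at the onset of secretion. Of the 3 rows closest to each member by Pearson's r, the closest was always named. All 3 were named only for LOX2, OPR3, LOC103835792 and MYC2. The other JAZ10 copies, AOC4 and the JAZ5 and JAZ12 rows matched by locus were named after their values were seen. Alternatives were a pseudocount of 10, scaling to the same total or by median ratio, no filter, and matching by locus alone. Added after seeing the data were leaving out variant X2 and leaving out further rows that stay under 100.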

Additional observations from a re-analysis of the deposited data

Results flagged for a closer look

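In 5 cases a member's lateral and median values went opposite ways over the same pair of stages; none of these differences between nectary types could be tested, because each group has 1 value. OPR3 had −0.40 in lateral and 1.35 in median nectaries on the log2 scale from the secretory to the post-secretory stage, and the lateral value was 0.25 with columns scaled to the same total. Variant X1 of LOC103835794 had 0.12 in lateral and −0.23 in median nectaries from the pre-secretory to the secretory stage. ACX1 had −0.57 in lateral and 0.25 in median nectaries from before to after secretion. JAZ10 had −0.22 in lateral and 0.92 in median nectaries from the pre-secretory to the secretory stage. From before to after secretion JAZ10 had −0.95 in lateral and 0.76 in median nectaries. Only the median OPR3 value passed 2-fold.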

How the results depend on the processing

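Counts of members past 2-fold stayed within 1.5 times of the reported value in 146 of 150 recomputations. Of these, 30 were run without the filter and could not move, because all 9 member rows pass it. With a pseudocount of 10 every member count stayed within that limit, although 4 single differences were no longer past 2-fold. With columns scaled by median ratio 2 members in place of 1 were higher at secretion than before it in lateral nectaries. With columns scaled to the same total 0 in place of 1 were higher at that step in median nectaries, and 1 in place of 0 was higher in lateral than in median pre-secretory nectaries. Without variant X2 of LOC103835794, 0 in place of 1 were lower in lateral than in median secretory nectaries. Of 405 single differences recomputed, 392 kept their side of 2-fold and their direction, 7 were no longer past it, 4 newly passed it, and 2 under 2-fold changed sign. Scaling to the same total moved the median of all transcripts by −0.49 to 0.64, and the median ratio moved it by −0.17 to 0.11. Counts of the wider list moved by over 1.5 times in 17 of 180 recomputations, 9 of them from matching by locus alone, which leaves fewer rows. No paired analysis was possible because the columns carry no replicate number, and leaving out replicates could not be run for the same reason. The depth behind each value is unknown, so no counting interval can be given, and differences of values under 10, such as VSP1 after secretion, depend most on the pseudocount.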
